A study of Mus musculus with 24 samples.

Results

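Of 17364 CodeLink probes with a value on every array, 6 (0.0346%) were on in all lacrimal gland samples of MRL/lpr mice and off in all samples of NOD mice. The probes were selected by their CodeLink values: above 4 in all 6 MRL/lpr arrays and below 1 in all 6 NOD arrays, where a value is an intensity standardized to a median near 1. The value table holds 17440 probes, of which 3767 lay above 4 in all MRL/lpr arrays. The same thresholds with the strains exchanged were met by 12 probes. Of the 6 probes, 5 are annotated to a gene and 1 has no gene symbol in the annotation used. The 5 genes are H2-T23, Tmem14c, Mb, Rmnd1 and Tdp2.

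Exorbital lacrimal glands, the tear glands in front of the ear, came from adult female and male MRL/lpr mice and from adult female and male NOD mice after onset of disease, the NOD mice being slightly older. MRL/lpr mice (MRL/MpJ-Tnfrsf6lpr) are homozygous for the lpr mutation of Fas, and NOD mice (nonobese diabetic/LtJ) develop autoimmune inflammation of the pancreas and exocrine glands without it. Both strains serve as models of Sjögren syndrome. Each of the 4 groups had n = 3 RNA pools of glands, from 5 to 8 mice by the labels and from a narrower range by the methods, and each pool was hybridized to a CodeLink array and to an Affymetrix array. The labels of the CodeLink samples, but not those of the Affymetrix samples, mention a placebo, and no other treatment is given. The strains differ in many alleles and in age, and these cannot be told apart from the strain.

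The lacrimal gland is a secretory epithelium in which acinar cells make tear proteins and fluid, and both strains accumulate lymphocytes in it. The 5 genes have no single pathway in common. H2-T23 encodes Qa-1, a nonclassical class I molecule of the major histocompatibility complex (MHC) that shows peptides to receptors of natural killer cells and CD8+ T cells. Tmem14c, Mb and Rmnd1 act in heme handling and in mitochondria, and Tdp2 acts in DNA repair.

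For H2-T23, Tmem14c and Mb the sequence before the start site in the C57BL/6J reference is shown, since H2-T23 had the highest ratio between the strains on CodeLink, Tmem14c the largest difference on Affymetrix, and Mb 2 CodeLink probes that were dark in NOD. Each run is the 250 bases before an annotated start in RefSeq (GRCm38.p6), 5′ to 3′ on the strand of the gene. Of the 5 genes, 4 have such an entry, with 6 starts in all. Capitals mark matches, on both strands, to GAAA repeated after any 2 bases (the core of the interferon-stimulated response element) and CCAAT in H2-T23, to CCAAT and GGGCGG (a GC box) in Tmem14c, and to CCAAT and CCCACCCC (a motif known from the human myoglobin gene) in Mb. Mb has 3 annotated starts, and the window of the middle start is shown.
H2-T23, chr17:36032702-36032951, minus strand: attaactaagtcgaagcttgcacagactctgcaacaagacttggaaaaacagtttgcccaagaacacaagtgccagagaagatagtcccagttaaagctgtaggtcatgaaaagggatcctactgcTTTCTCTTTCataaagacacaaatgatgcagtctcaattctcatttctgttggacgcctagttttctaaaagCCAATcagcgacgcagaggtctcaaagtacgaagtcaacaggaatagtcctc
Tmem14c, chr13:41016000-41016249, plus strand: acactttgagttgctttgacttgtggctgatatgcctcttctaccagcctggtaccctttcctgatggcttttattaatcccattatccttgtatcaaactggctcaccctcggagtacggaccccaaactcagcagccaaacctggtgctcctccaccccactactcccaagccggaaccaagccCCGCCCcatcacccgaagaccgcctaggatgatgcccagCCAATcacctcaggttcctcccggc
Mb, chr15:77022788-77023037, minus strand: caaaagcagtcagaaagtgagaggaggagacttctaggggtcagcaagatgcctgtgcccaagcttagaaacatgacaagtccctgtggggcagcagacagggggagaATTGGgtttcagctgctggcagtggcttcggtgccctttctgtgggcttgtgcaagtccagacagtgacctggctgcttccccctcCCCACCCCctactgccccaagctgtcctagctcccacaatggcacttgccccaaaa

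Of the motifs searched, CCAAT alone was matched in all 3 windows shown. Among all 32851 annotated starts, 2.98% of such windows held the repeated GAAA, 33.8% CCAAT, 32.7% GGGCGG and 8.52% CCCACCCC. Also searched were CANNTG, the E-box, which 66.2% of windows held, and TATAAA, which 12.4% held and none of the windows of these genes did. The repeated GAAA lay on the minus strand of the H2-T23 window, 124 to 115 bases before the start, and the CCAAT match 52 to 48 bases before it. The CCCACCCC match of Mb lay 56 to 49 bases before the start. The H2-T23 window had 42.4% G and C, against 55.2% in Tmem14c, 57.2% in the Mb window shown and a median of 52.4% over all windows. The matches describe letters of the reference genome, which is neither of the strains studied here.

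The position of the 6 probes among all probes is given by the plot of the lowest MRL/lpr value against the highest NOD value. Of the 3762 probes above 4 in all MRL/lpr arrays that had all 12 values, 3173 (84.3%) were also above 4 in all NOD arrays. Only 21 had a highest NOD value below 4, and 7 had one below 2. The lowest MRL/lpr value exceeded the highest NOD value 43.5-fold for H2-T23, 17.2-fold for Tmem14c, 14.7-fold for Tdp2, 9.08-fold for the probe without a symbol, 8.97-fold for Rmnd1 and 5.88-fold for Mb. These ratios describe values that chose the probes.

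**Figure D1:**
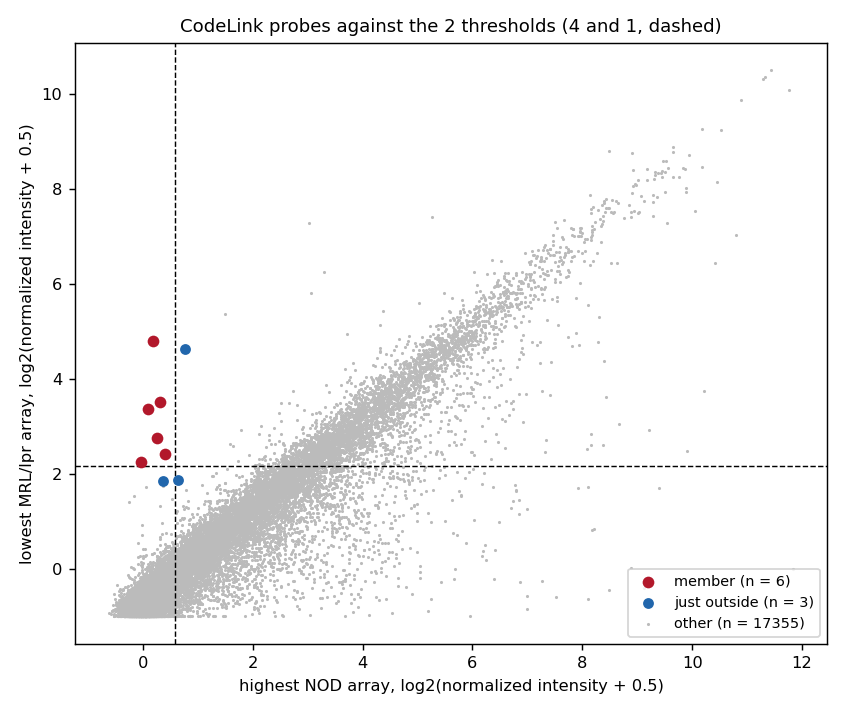
Each point is a CodeLink probe with 12 values, placed by its highest NOD array (horizontal axis) and its lowest MRL/lpr array (vertical axis), both as log2(normalized intensity + 0.5). The dashed lines are the thresholds of 4 and 1, the 6 selected probes (red) fill the upper left corner, 3 probes just outside are blue, and 17355 other probes are grey.

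Just outside the thresholds lay Slc9a3r1, a scaffold protein of apical membranes, with 24.2 to 39.7 in MRL/lpr and up to 1.21 in NOD, Nid2, a basement membrane protein, with a lowest MRL/lpr value of 3.15 and a highest NOD value of 1.05, and Polr2k, a small subunit of RNA polymerases, with 3.10 and 0.794. Just inside lay the probe without a symbol, whose lowest MRL/lpr value was 4.27, and Mb, whose lowest MRL/lpr value was 4.86 and highest NOD value 0.827. On Affymetrix, Slc9a3r1 was bright in both strains, with scaled signals of 3723 to 5494 in MRL/lpr and 2330 to 3624 in NOD. Its log2 difference of 0.61 ± 0.09 (SE, limma adjusted p = 1.1e-04) was higher in MRL/lpr. Nid2 had 331 to 547 in MRL/lpr and 31.4 to 116 in NOD.

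All 36 MRL/lpr spots of the 6 probes carried no background flag, and all 36 NOD spots were flagged as not well above background. Raw intensities after background subtraction were 68.0 to 2033 in MRL/lpr and -0.416 to 13.7 in NOD, over local backgrounds of 49.0 to 56.0 in MRL/lpr and 51.0 to 57.0 in NOD. The lowest normalized value of any spot above background was 0.574 to 1.00 across MRL/lpr arrays and 0.806 to 1.36 across NOD arrays. The NOD values are therefore bounds, and a fold is written as "at least" with each NOD array set to its lowest above-background value or its own value, whichever was higher.

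H2-T23 (Gene ID 15040, chromosome 17, 36029977 to 36032701, GRCm38.p6 as for all positions) was the brightest of the 6 probes. Its CodeLink values were 71.5, 59.2 and 43.0 in female MRL/lpr pools and 66.2, 49.8 and 27.4 in male MRL/lpr pools, against 0.289, 0.0373 and -0.0364 in female NOD pools and 0.386, 0.620 and 0.631 in male NOD pools. MRL/lpr was at least 44.7-fold higher, and 88.9% of the probes that were on in MRL/lpr were dimmer. No NOD array of either sex came near any MRL/lpr array, but the selection required the strains to be apart in every array.

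Tmem14c (Gene ID 66154, chromosome 13, 41016250 to 41022582) encodes a mitochondrial inner membrane protein needed to move a heme precursor in developing red cells. Its CodeLink values were 14.2, 11.4 and 9.77 in female MRL/lpr pools and 12.7, 12.8 and 12.2 in male MRL/lpr pools, against 0.568, 0.0879 and 0.484 in female NOD pools and 0.236, 0.275 and 0.443 in male NOD pools. The difference was at least 10.7-fold, and the 3 MRL/lpr males lay within a narrow range.

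Mb (Gene ID 17189, chromosome 15, 77015487 to 77050668) encodes myoglobin, the oxygen-binding heme protein of heart and oxidative skeletal muscle. Its selected probe gave 5.21, 6.47 and 4.86 in female MRL/lpr pools and 7.87, 8.30 and 5.07 in male MRL/lpr pools, against 0.656, 0.434 and 0.827 in female NOD pools and 0.683, 0.505 and 0.280 in male NOD pools, at least 5.46-fold higher in MRL/lpr. Mb is the single gene of the 5 with a second CodeLink probe, which the rule did not select. That probe gave 3.69, 4.17 and 2.14 in female MRL/lpr pools and 5.73, 6.35 and 2.94 in male MRL/lpr pools, against 0.236, 0.242 and 0.339 in female NOD pools and 0.233, 0.208 and 0.308 in male NOD pools. It thus had the same order of the strains in every array, and again all 6 NOD spots were not well above background.

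Myoglobin is a muscle protein, so the marker list of skeletal muscle was read beside it. On CodeLink the 4 measured genes of 5 (Acta1, Ckm, Myl1 and Tnnt3) summed to 0.595 to 0.925 in female MRL/lpr pools and 0.813 to 1.39 in male MRL/lpr pools, against 1.21 to 1.62 in female NOD pools and 1.04 to 1.55 in male NOD pools. The highest single value was 0.694, so that all 4 were at or near 0 in every array. On Affymetrix the 5 genes summed to 84.4 to 123 in female MRL/lpr pools and 163 to 353 in male MRL/lpr pools, against 96.1 to 442 in female NOD pools and 265 to 293 in male NOD pools, with no gene above 169. None of the 5 passed the strain test.

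Rmnd1 (Gene ID 66084, chromosome 10, 4403169 to 4432405) encodes a mitochondrial protein needed for translation inside the organelle. Its CodeLink values were 9.46, 7.31 and 7.40 in female MRL/lpr pools and 7.59, 9.02 and 6.25 in male MRL/lpr pools, against 0.498, 0.697 and 0.417 in female NOD pools and 0.143, 0.603 and 0.351 in male NOD pools. The difference was at least 6.88-fold, with all 6 MRL/lpr arrays between 6.25 and 9.46.

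Tdp2 (Gene ID 56196, chromosome 13, 24831659 to 24842153) encodes a phosphodiesterase that removes trapped topoisomerase from broken DNA ends. Its CodeLink values were 15.2, 11.0 and 13.6 in female MRL/lpr pools and 11.1, 11.0 and 13.7 in male MRL/lpr pools, against 0.493, 0.485 and 0.732 in female NOD pools and 0.431, 0.485 and 0.747 in male NOD pools. MRL/lpr was at least 11.1-fold higher, and about as many probes on in MRL/lpr were dimmer (49.1%) as brighter.

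The probe without a symbol (probe 20624) gave 7.58, 6.54 and 6.20 in female MRL/lpr pools and 4.73, 4.61 and 4.27 in male MRL/lpr pools, against 0.224, 0.329 and 0.470 in female NOD pools and 0.0853, 0.348 and 0.241 in male NOD pools, at least 4.90-fold higher in MRL/lpr. It was the dimmest of the 6 in MRL/lpr, and its MRL/lpr females lay above all its MRL/lpr males.

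**Figure D2:**
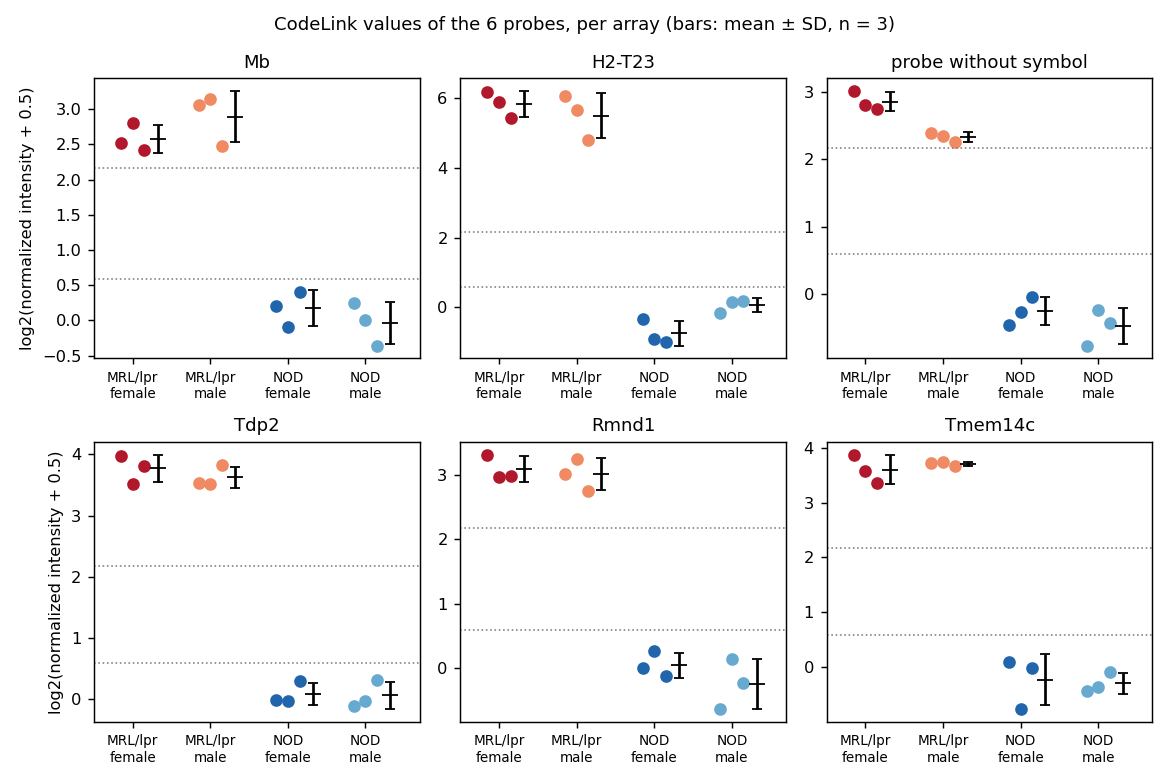
Each panel is a selected CodeLink probe and each point an array, as log2(normalized intensity + 0.5), with MRL/lpr females and males left of NOD females and males. Bars are mean ± SD of 3 pools and dotted lines the thresholds of 4 and 1. Every MRL/lpr point lies above the upper line and every NOD point below the lower line, as the selection requires.

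Affymetrix arrays measure the same RNA pools with other probes that had no part in the selection, so they are a second measurement of these pools and not of other mice. The number of a pool in the labels was compared across platforms: over 3599 genes, the CodeLink array that varied most like an Affymetrix array within its group had the same number in 11 of 12 cases. Each choice was among only 3 arrays. The correlations of same-numbered arrays ran from 0.02 to 0.49, and were weak in NOD male 2 (0.02) and NOD male 3 (0.04). All 5 genes were listed for an Affymetrix probe set, 7 sets in all. For Tmem14c, Mb and Tdp2 the brightest set lists that gene alone. The brightest set listed for H2-T23 also lists the pseudogene H2-T-ps, and that for Rmnd1 also lists Gm5512, so their signals cannot be given to 1 gene. Of the 5 sets, 4 were higher in MRL/lpr and 0 lower in the limma fit (adjusted p under 0.05). Over all 13319 genes, 4.43% were higher and 3.28% lower. The median log2 difference was 2.12 over the 5 sets and -0.02 over all genes. All 6 MRL/lpr arrays lay above all 6 NOD arrays in 3 of the 5 sets, against 1.20% of all genes.

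The set for Tmem14c had the largest log2 difference of the 5. Its scaled signals were 1830, 2271 and 1863 in female MRL/lpr pools and 1806, 2176 and 2552 in male MRL/lpr pools, against 18.1, 21.8 and 15.6 in female NOD pools and 263, 124 and 50.1 in male NOD pools. NOD females lay at 21.8 or below, and NOD males were low but above them. The log2 difference was 4.27 ± 0.21 (SE, limma adjusted p = 4.1e-13). With NOD signals this low its size depends on the scale, being 4.92 with a pseudocount of 16, 3.34 with one of 150 and 1.92 on signals as deposited, and it is no exact fold.

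The brighter set for Mb gave 447, 386 and 217 in female MRL/lpr pools and 457, 533 and 460 in male MRL/lpr pools, against 9.75, 233 and 23.5 in female NOD pools and 14.5, 24.0 and 58.0 in male NOD pools. The groups overlapped at a single point, since NOD female 2 lay above MRL/lpr female 3. The log2 difference was 2.29 ± 0.33 (SE, limma adjusted p = 5.1e-05). It was 0.61 on signals as deposited (adjusted p = 4.3e-04), 1.48 with a pseudocount of 150 and 1.14 as the mean of both sets (adjusted p = 0.0447). In NOD female 2 the muscle genes Acta1, Ckm, Myh4, Myl1 and Tnnt3 gave 18.5, 155, 31.9, 139 and 97.4. Its muscle sum of 442 was the highest of the 12 arrays, but Myl1 was higher in NOD male 2, at 169. On CodeLink the same pool gave 0.0355 for Acta1, 0.694 for Ckm, 0.230 for Myl1 and 0.251 for Tnnt3. The part of muscle in the Mb signal of NOD female 2 was not tested. The second set for Mb was low in both strains, with a highest signal of 140 in MRL/lpr and 223 in NOD, and did not pass (log2 difference -0.01 ± 0.39 (SE), limma adjusted p = 0.994).

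Tdp2 gave another picture on Affymetrix. Its set gave 1076, 1330 and 908 in female MRL/lpr pools and 1362, 1188 and 1394 in male MRL/lpr pools, against 1117, 952 and 941 in female NOD pools and 1068, 933 and 751 in male NOD pools. Both strains were bright and the groups overlapped. The log2 difference of 0.31 (95% confidence interval 0.06 to 0.56, limma adjusted p = 0.155) did not pass, and its upper bound corresponds to 1.48-fold on that scale, against at least 11.1-fold on CodeLink.

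The set listed for H2-T23 and H2-T-ps gave 9175, 9954 and 4932 in female MRL/lpr pools and 6042, 5136 and 5388 in male MRL/lpr pools, against 760, 917 and 655 in female NOD pools and 2627, 2317 and 3264 in male NOD pools. NOD females thus gave a lower signal than NOD males, and no NOD array fell below 655, while the CodeLink probe was dark in both sexes. The log2 difference was 2.12 ± 0.14 (SE, limma adjusted p = 1.3e-10). A second set listed for the same pair stayed between 12.6 and 221 in MRL/lpr and between 17.7 and 134 in NOD, and did not pass (limma adjusted p = 0.626).

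The set listed for Rmnd1 and Gm5512 was low. It gave 220, 203 and 197 in female MRL/lpr pools and 189, 130 and 196 in male MRL/lpr pools, against 11.1, 35.3 and 6.52 in female NOD pools and 120, 111 and 4.91 in male NOD pools. The groups did not overlap, but MRL/lpr male 2 and 2 of the NOD males were close. The log2 difference was 1.44 ± 0.32 (SE, limma adjusted p = 0.00499). It was 1.95 in females alone (adjusted p = 0.00783) and 0.94 in males alone (adjusted p = 0.260), and the signals as deposited, without scaling to a common mean, gave 0.28 (adjusted p = 0.0937).

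**Figure D3:**
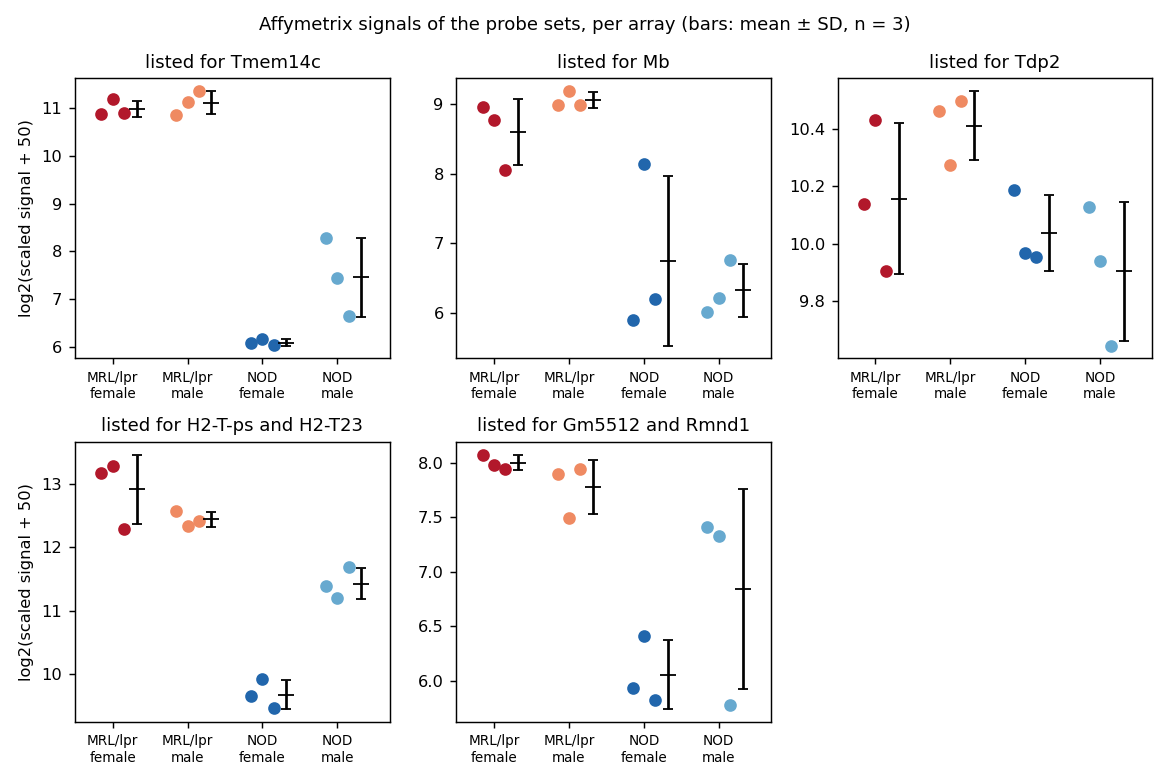
Each panel is the brightest Affymetrix probe set listed for a gene and each point an array, as log2(scaled signal + 50), with MRL/lpr left of NOD. Bars are mean ± SD of 3 pools. The strains are far apart for Tmem14c, overlap for Tdp2, and for H2-T-ps and H2-T23 the NOD females (655 to 917) lie below the NOD males (2317 to 3264).

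Of the 3 genes with a set of their own, the brightest set thus passed for Tmem14c and Mb and not for Tdp2, and for Mb its second set had means of 61.4 in MRL/lpr and 68.2 in NOD. The sets for H2-T23 and Rmnd1 passed but list a second gene. The values do not show whether a transcript is missing or whether a probe pairs less well with the allele of a strain. The CodeLink probe sequences and the alleles of both strains were not used here, and either cause was not tested.

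The size of the strain difference was compared between the sexes. It differed by sex for 1 of the 5 sets, that listed for H2-T-ps and H2-T23, against 8.72% of all genes. MRL/lpr exceeded NOD by a log2 difference of 3.23 ± 0.20 in females and 1.01 ± 0.20 in males, and the difference of the 2 was 2.22 ± 0.28 (SE, limma adjusted p = 5.8e-06). For Tmem14c it was 4.89 ± 0.29 in females and 3.65 ± 0.29 in males, and their difference of 1.24 ± 0.41 did not pass (limma adjusted p = 0.0813). For Mb, the set for Rmnd1, and Tdp2 the difference of the sexes was -0.88 ± 0.67, 1.01 ± 0.64 and -0.39 ± 0.24 (SE), and none passed.

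Sums of T cell, B cell and macrophage markers were higher in NOD males than in NOD females, as was the signal of the H2-T-ps and H2-T23 set. The 6 of 7 T cell markers measured on Affymetrix summed to 1153 to 1620 in female MRL/lpr pools and 548 to 834 in male MRL/lpr pools, against 279 to 815 in female NOD pools and 2692 to 3144 in male NOD pools. The 5 of 6 B cell markers summed to 1029 to 1181 in female MRL/lpr pools and 264 to 744 in male MRL/lpr pools, against 454 to 700 in female NOD pools and 7203 to 9202 in male NOD pools. The 7 macrophage markers summed to 6749 to 10003 in female MRL/lpr pools and 3768 to 5623 in male MRL/lpr pools, against 3039 to 3724 in female NOD pools and 10563 to 12201 in male NOD pools. Single markers were low throughout a group, such as Cd4, with 5.26, 7.43 and 28.3 in male MRL/lpr pools and 9.75, 70.5 and 14.3 in female NOD pools. All MRL/lpr signals of the set lay above those of NOD males, and all MRL/lpr T cell and B cell sums below. Endothelial and fibroblast sums were also higher in NOD males, at 651 to 846 against 373 to 580 in females for endothelium. Acinar, duct, myoepithelial and salivary gland sums were higher in NOD females, and plasma cell sums overlapped (29303 to 43763 in females, 36991 to 49369 in males). In NOD these sums cannot be told apart from sex. The part of any cell type was not tested, and in gland RNA fewer cells of a type and less RNA per cell cannot be told apart.

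**Figure D4:**
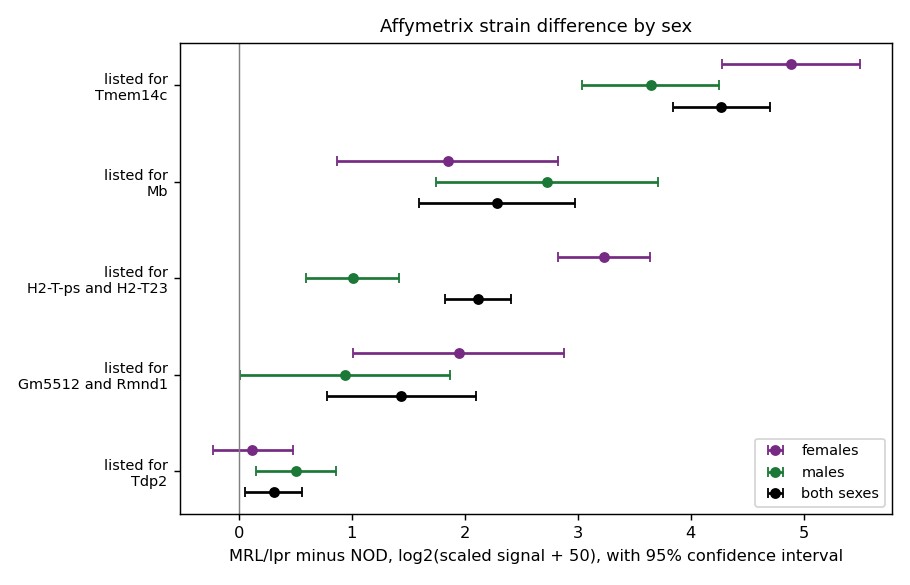
Points are limma estimates of MRL/lpr minus NOD on log2(scaled signal + 50) for the brightest probe set listed for each gene, with 95% confidence intervals, in females, in males and over both sexes. The intervals of females and males are apart for H2-T-ps and H2-T23 (3.23 and 1.01), and the interval over both sexes for Tdp2 runs from 0.06 to 0.56.

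The sexes were compared within MRL/lpr, a contrast that the selection did not use. On CodeLink 1 of the 6 probes was higher in females and 0 in males, against 14.7% and 6.40% of the probes above 4 in all MRL/lpr arrays, so its share was near the background. It was the probe without a symbol, with a mean of 6.77 ± 0.719 in females and 4.54 ± 0.239 in males (SD, n = 3) and a log2 difference of 0.53 ± 0.16 (SE, limma adjusted p = 0.0434). This call was lost without any 1 of the 6 MRL/lpr arrays (adjusted p from 0.0615 to 0.172). The other 5 probes had log2 differences from -0.31 for Mb to 0.33 for H2-T23 (limma adjusted p from 0.412 to 0.877). On Affymetrix, 0 of the 5 sets were higher in females and 0 in males in the limma fit, against 5.31% and 4.60% of all genes, and 1 had an unadjusted p under 0.05. That set was the one listed for H2-T-ps and H2-T23, with 8020 ± 2703 in females and 5522 ± 468 in males (SD, n = 3, limma adjusted p = 0.168).

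The 5 genes lie on chromosomes 17, 13, 15 and 10, and the 2 on chromosome 13, Tdp2 and Tmem14c, start 16.2 Mb apart. None had another of the 5 within 2 Mb. Of the 12 probes with the opposite pattern, 9 have a symbol, and 4 of those, Rpp21, Mmut, H2-Bl and H2-Ab1, lie on chromosome 17, which holds 4.86% of the placed genes with a CodeLink probe. Chromosome 13 holds 3.66% of these placed genes. Slc17a2, also of the opposite pattern, starts there at 23806941, and Tdp2 at 24831659. Mbtd1 and Mrpl27, of the opposite pattern too, start at 93885850 and 94653770 on chromosome 11.

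Neighbouring genes were read on Affymetrix through sets that list 1 gene alone. Within 1 Mb of the 5 genes, 118 neighbours were tested, of which 8 (6.78%) were higher in MRL/lpr and 4 (3.39%) lower, against 4.24% and 3.12% of all such genes. Around Tdp2, 3 of 12 were higher, Acot13, a thioesterase of mitochondria, Gmnn, an inhibitor of DNA replication licensing, and Mrs2, a mitochondrial magnesium channel. Acot13 starts 13.7 kb before Tdp2 and had means of 1851 in MRL/lpr and 974 in NOD (log2 difference 0.90 ± 0.14, limma adjusted p = 1.0e-04). Mrs2, 155.8 kb beyond Tdp2, had means of 553 in MRL/lpr and 135 in NOD (log2 difference 1.72 ± 0.22, adjusted p = 6.7e-06). Gpld1, 106.1 kb beyond Tdp2, was lower, with means of 486 in MRL/lpr and 870 in NOD (log2 difference -0.73 ± 0.15, adjusted p = 0.00269).

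Of the 12 neighbours that passed, 10 had a CodeLink probe, and the CodeLink means had the same order in 8 and the opposite order in 2. Acot13 and Gpld1 had the same order, with 6.61 to 10.5 in MRL/lpr and 2.29 to 4.42 in NOD for Acot13, and 1.63 to 2.47 in MRL/lpr and 4.43 to 11.3 in NOD for Gpld1. Around Mb, 4 of 41 neighbours were higher (Rpl8, Fbxl6, Myh9 and Eif3d) and 0 lower. Around Tmem14c, 1 of 6 was higher, Pak1ip1, which starts 15.2 kb before it, with a log2 difference of 0.67 ± 0.13 (SE), while Mak, 8.8 kb beyond it, had means of 51.1 in MRL/lpr and 64.0 in NOD. The 2 with the opposite order were Pak1ip1, with CodeLink means of 26.1 in MRL/lpr and 28.2 in NOD, and Eif3d, a subunit of a translation initiation factor, with 10.7 in MRL/lpr and 11.9 in NOD, and in both the arrays of the strains overlapped. Among those with the same order, the CodeLink arrays also overlapped for Rpl8, with 45.0 to 115 in MRL/lpr and 41.0 to 86.1 in NOD. They overlapped for Myh9 (67.8 to 91.5 and 58.6 to 87.4) and Gmnn (1.13 to 2.72 and 0.231 to 1.43) as well, and were apart for the others. Around Rmnd1, 0 of 6 passed in either direction by limma, and the log2 differences ran from -0.68 to 0.20. Near H2-T23, 0 of 53 neighbours were higher and 3 lower by limma, namely Flot1, Ppp1r11 and H2-D1, whose sets disagreed (below). The log2 difference was -0.68 for Flot1 (limma adjusted p = 0.00140) and -0.74 for Ppp1r11 (limma adjusted p = 8.9e-04).

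**Figure D5:**
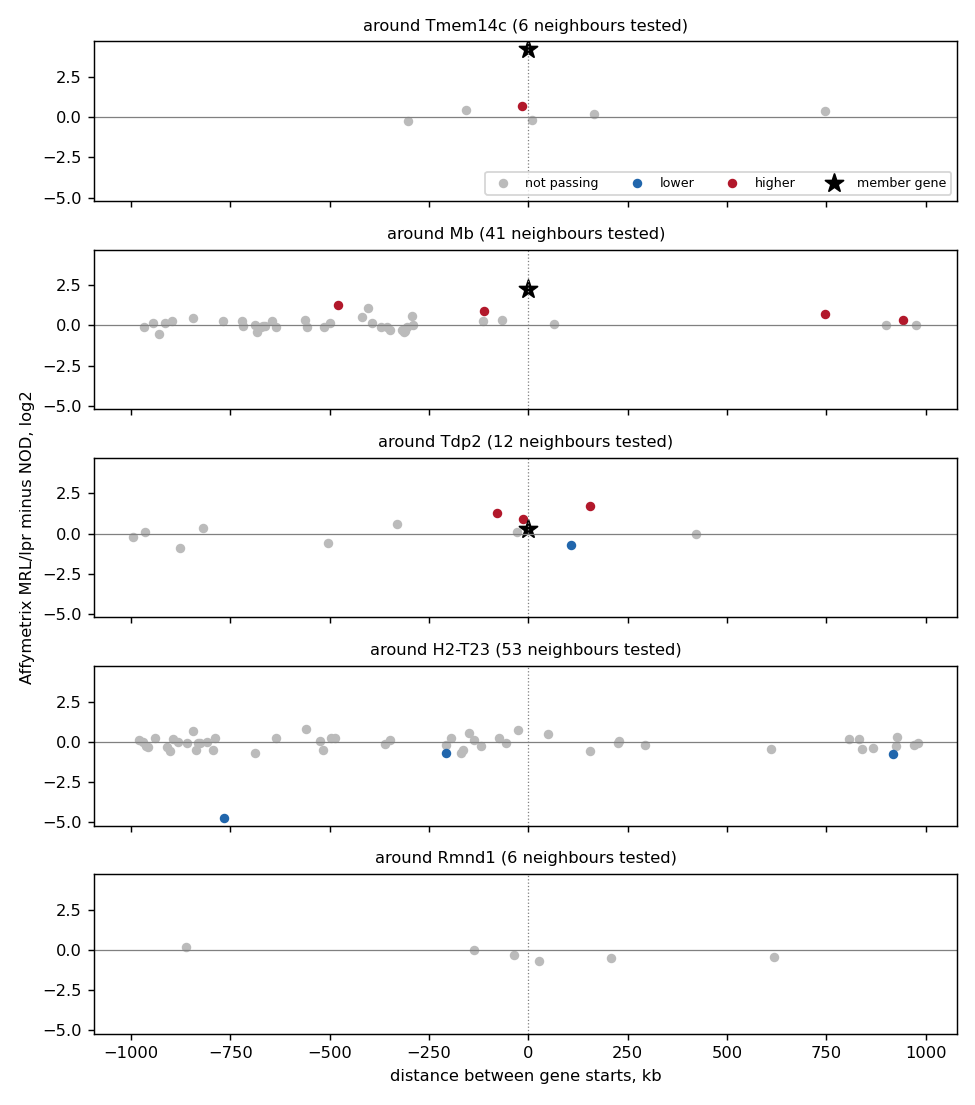
Points are neighbouring genes within 1 Mb of each of the 5 genes, by the distance between gene starts in kb (horizontal axis) and the Affymetrix log2 difference, MRL/lpr minus NOD (vertical axis). Red and blue are genes higher and lower in MRL/lpr by limma, grey did not pass, and stars are the genes themselves where a probe set lists them alone. The largest neighbouring difference shown is H2-D1, at -4.76, while another set for H2-D1 had 5.85.

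H2-T23 lies among MHC genes whose probes went both ways. MHC class I molecules show peptides from inside the cell and class II molecules peptides taken up from outside, and their genes are among the most variable between mouse strains. On CodeLink, H2-Bl, which starts 50.1 kb beyond H2-T23, was dark in MRL/lpr (0.0608 to 0.470) and bright in NOD (17.0 to 127). H2-T10, 85.9 kb beyond, gave 0.382 to 1.54 in MRL/lpr and 6.11 to 32.7 in NOD. Rpp21, a subunit of ribonuclease P 225.7 kb beyond, gave 0.264 to 0.489 in MRL/lpr and 7.31 to 10.2 in NOD. On the other side of H2-T23, H2-T24 was low in both strains, with 0.200 to 0.691 in MRL/lpr and 0.341 to 0.819 in NOD. Affymetrix sets did not give the same picture. The set for H2-Bl was low in both strains, with means of 109 in MRL/lpr and 77.2 in NOD (log2 difference 0.47, limma adjusted p = 0.524), and that for Rpp21 had means of 301 in MRL/lpr and 312 in NOD (log2 difference -0.05, limma adjusted p = 0.954).

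Of 18 H2 genes with a CodeLink probe, H2-T23 was the 1 that met the thresholds in favour of MRL/lpr, and H2-Bl and H2-Ab1 met them in favour of NOD. On Affymetrix, 0 of 21 H2 genes with a set of their own were higher in MRL/lpr by limma and 4 were lower. Sets of 1 gene disagreed with each other. For H2-D1, a classical class I gene, a set with 15028 in MRL/lpr and 212 in NOD (log2 difference 5.85, limma adjusted p = 3.3e-17) stood beside a set with 681 in MRL/lpr and 21087 in NOD (log2 difference -4.76, limma adjusted p = 1.3e-17).

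Lists on mitochondria and cell types were read beside the genes, against 4.24% of genes higher and 3.12% lower for sets that list 1 gene alone. Of 74 genes of the mitochondrial ribosome, which Rmnd1 serves, 3 were higher and 2 lower in MRL/lpr by limma, with a median log2 difference of -0.07. Of 81 genes of the respiratory chain, 1 was higher and 5 were lower, with a median of -0.08. On Affymetrix, acinar cell markers (Aqp5, Bhlha15, Rab3d, Slc12a2, Car6 and Pip), which define the gland, summed to 134585 to 208122 in female MRL/lpr pools and 139303 to 194280 in male MRL/lpr pools, against 200813 to 222912 in female NOD pools and 118540 to 142505 in male NOD pools, and 2 of the 6 were higher and 0 lower in MRL/lpr by limma. Of 3 erythroid markers, read for the heme genes, 1 was measured on Affymetrix, with 174 to 414 in female MRL/lpr pools and 205 to 396 in male MRL/lpr pools, against 196 to 346 in female NOD pools and 12.8 to 302 in male NOD pools, and it did not pass. On CodeLink the erythroid marker measured was Hba-a1, with 102 to 131 in female and 69.9 to 93.2 in male MRL/lpr pools. It gave 21.6 to 95.1 in female and 56.0 to 94.3 in male NOD pools, and its strain difference was not tested. No list was read for Tdp2.

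Across the series, salivary gland transcripts were highest in MRL/lpr female 1 and NOD female 3. Bpifa2, a salivary secreted protein, reached 1036 on CodeLink in MRL/lpr female 1 and 3666 in NOD female 3, against 0.507 to 1.36 in the other MRL/lpr arrays and 0.771 to 323 in the other NOD arrays, and the same pools stood out on Affymetrix. All NOD female pools lay above all NOD male pools on CodeLink, with 45.6, 323 and 3666 against 7.10, 0.847 and 0.771. The part of salivary tissue in the NOD female signals was not tested. Without MRL/lpr female 1 and NOD female 3 the thresholds were met by the same 6 probes. CodeLink arrays had 15.9 to 28.4 raw units per normalized unit in MRL/lpr and 11.4 to 20.1 in NOD. The brightest arrays were thus MRL/lpr and the dimmest NOD, but the ranges overlapped. NOD male 1, at 20.1, lay above MRL/lpr female 3, at 19.7, and above all MRL/lpr males. Affymetrix trimmed means as deposited ran from 26.9 to 74.1 in MRL/lpr and 29.8 to 62.5 in NOD. Whether brightness had a part in the NOD values below 1 was not tested.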

How the data were processed

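Per the labels and the study's methods, the authors scanned CodeLink arrays and deposited an intensity per spot after local background subtraction and division by an array factor, giving a median near 1. They read Affymetrix 430A 2.0 images with Microarray Suite and deposited linear intensity values. The methods describe scaling to a trimmed mean of 500, but the deposited values have trimmed means of 26.9 to 74.1, so a factor per array set the mean, trimmed by 2% at each end, to 500. Members were found by the thresholds alone, and the members, gene lists and tests were chosen with earlier results of these data known. Strains and sexes were compared with limma (3.58.1, under R 4.3.3), fitted to log2(intensity + 50) for Affymetrix and log2(intensity + 0.5) for CodeLink, with values below 0 set to 0, no filter on low values, an intensity trend, 4 groups of 3 pools and Benjamini-Hochberg adjustment over all probes. At least 2 values per group were required. No strain test was run on CodeLink, whose values chose the members. A gene was read from its brightest listed probe set. CodeLink annotation named 1 gene for 11377 of 17440 probes and none for 6063. Affymetrix annotation named 1 gene for 20380 of 22626 probe sets, several for 691 and none for 1555. The array files hold 2847 further spots, of which 0 met the thresholds. All members with a symbol are named, with the probes just inside and outside the thresholds. Neighbours named are those that passed, the nearest ones and those with opposite CodeLink values, chosen after their values were seen. The number of arrays limits the precision. The main fit of each platform was tested on simulated data, for the strain contrast alone. Alternatives covered scaling, pseudocount, filter, trend, probe set choice, replicate block, each array left out and the methods' t-test. Plots used matplotlib 3.10.9. Promoter windows came from RefSeq.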

Additional observations from a re-analysis of the deposited data

Results flagged for a closer look

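The strain difference of the probe set listed for H2-T-ps and H2-T23 was larger in females than in males, with a difference of the log2 differences of 2.22 ± 0.28 (SE, limma adjusted p = 5.8e-06), from 3.23 in females and 1.01 in males. It was noted because the difference itself was tested and passed. Leaving out each array in turn gave 2.04 to 2.54. Over 21 alternatives the difference ran from 1.15, with the mean of both sets listed for the pair, to 2.58, and the adjusted p from 5.3e-09 to 0.0373. In NOD the signals of this set and the sums of T cell, B cell and macrophage markers were all higher in males. Other marker lists separated the NOD sexes too, and the part of any cell type was not tested.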

How the results depend on the processing

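The number of selected probes was 3 with a threshold above 8 in MRL/lpr and 1 with a threshold below 0.5 in NOD, and 6 to 7 when each array was left out in turn. Quantile normalization and the values of the single-array files kept the same 6 probes. On Affymetrix, the count of sets higher in MRL/lpr was 4 when each array was left out in turn and with quantile normalization, the other pseudocounts, the filter, no trend, the mean of all sets or females alone, and 3 on signals as deposited and in males alone, where the set for Rmnd1 did not pass. It was 2 of 3 with only sets that list the gene alone, an alternative chosen after seeing the data, and with the methods' t-test after Benjamini-Hochberg 1 in females and 2 in males (3 and 4 unadjusted). The median log2 difference over the 5 genes was 0.61 on signals as deposited, 1.48 with a pseudocount of 150, 1.28 with the mean of all sets of a gene, 1.01 in males alone, and 2.03 to 2.28 without single arrays. The count of sets whose strain difference differed by sex was 2 with a pseudocount of 16 and 1 to 2 without single arrays, where Tmem14c passed without NOD male 3 (difference of 1.65, limma adjusted p = 0.00499), and that of Tdp2 was 0.44 on signals as deposited, with the opposite sign. Same-numbered pools of different groups had correlations of deviations from -0.02 to 0.09 on Affymetrix and from -0.06 to 0.10 on CodeLink (18 per platform). Among 3 candidates, the best match had the same number in 10 and 9 of 18 cases. Whether same-numbered pools share a batch was not tested. With the replicate block the CodeLink sex count was 0, and the block changed no other call. That count was also 0 with a pseudocount of 0.1, with no trend, with the methods' t-test, without MRL/lpr female 1 and NOD female 3 together (also chosen after seeing the data), and 0 to 0 without single arrays. The Affymetrix sex count was 0 to 1 without single arrays, the 1 arising without MRL/lpr female 3. No 2 genes lay within 0.5 or 2 Mb. The cause of these changes was not tested. NOD values lie at background, so the folds on CodeLink are bounds, and sets near a scaled signal of 100 depend on the pseudocount.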
